A study of Homo sapiens with 16 samples.

Results

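MAPK6, VDAC1 and AK4 are 3 genes that were each lower under 1 of 3 siRNAs against TPX2 and not under the others. They are described here with 6 relatives, MAPK4, MAPKAPK5, VDAC2, VDAC3, AK3 and AK1, which serve as comparators. The 9 genes were found by symbol among the 58787 gene rows of the count table, and all 9 passed the filter on low counts that left 14193 genes for testing. The first 3 were chosen by their fold changes and adjusted p-values under these siRNAs, so their levels are given as a description with no test, while the 6 relatives were named by family and were tested.

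The RNA came from IMR32, an established human neuroblastoma cell line that the labels describe as neuroblast. Cells received si45, si46 or si47, which are 3 siRNAs against TPX2, a microtubule-binding protein of the mitotic spindle, or the control siRNA labelled siNTC. Each of the 4 groups has 4 libraries, which the series' design text calls biological replicates, and the column names of the table give 48 h. All groups are 1 cell line, and the labels give no siRNA dose. RNA was profiled with a kit that sequences the 3' ends of transcripts, so a count reflects the end of a transcript and not its length.

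MAPK6 encodes ERK3, an atypical MAP kinase whose activation loop lacks the dual phosphorylation motif of the classical kinases, and MAPK4 encodes ERK4, its closest paralog. Both bind and activate MAPKAPK5, also called MK5 or PRAK. VDAC1, VDAC2 and VDAC3 are the voltage-dependent anion channels, beta-barrel pores through which ATP, ADP and other metabolites cross the outer mitochondrial membrane. Adenylate kinases move phosphate groups between nucleotides: AK4 and AK3 sit in the mitochondrial matrix and AK1 in the cytosol. An siRNA guides cleavage of the transcript it pairs with, and siRNAs are also known to lower other transcripts through partial pairing, often at sites in 3' untranslated regions.

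Library totals ran from 5318159 to 7864343 counts, with a median of 5966582. TPX2 itself was at 327 ± 27.1 CPM in siNTC (SD, n = 4, where CPM is a count relative to the TMM-adjusted total of its library), 91.6 ± 19.8 under si45, 81.7 ± 14.3 under si46 and 71.5 ± 3.37 under si47. Its counts were 1569 to 2165 in the siNTC libraries and 334 to 718 in the knockdown libraries, with no overlap. All 9 neuroblast markers had a mean of at least 1 CPM, the lowest being TH, the first enzyme of catecholamine synthesis, at 3.18 CPM. Their summed level was 4700 to 5120 CPM in siNTC, 4890 to 5470 under si45, 5140 to 5750 under si46 and 5200 to 5930 under si47. Of the markers of other cell types, 2 of 8 mesenchymal, 1 of 5 epithelial, 1 of 4 glial and 0 of 3 blood markers reached 1 CPM, and the blood marker LYZ had no count in any library. The part of these differences in the results below was not tested. In bulk RNA, fewer cells expressing a gene and less of its RNA per cell cannot be told apart.

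MAPK6 (ENSG00000069956, chr15:51952106-52067372, plus strand, GRCh38) was lower under si45. Its level in the 4 siNTC libraries was 139, 130, 147 and 157 CPM, and under si45 it was 88.8, 97.9, 88.3 and 84.9 CPM. Under si46 it was 145, 145, 151 and 162 CPM, and under si47 it was 166, 154, 141 and 163 CPM. Each si45 library was below all 12 other libraries, as for 13 genes or 0.0916% of those tested, and the si46 and si47 libraries overlapped the siNTC range. The group means were 144 ± 11.4 CPM in siNTC, 90 ± 5.53 under si45, 151 ± 7.85 under si46 and 156 ± 11.1 under si47 (SD, n = 4), so that the si45 level was 62.7% of siNTC. The log2 fold change against siNTC was -0.67 under si45 (SE 0.0888), 0.071 under si46 (SE 0.0872) and 0.12 under si47 (SE 0.0872). Under si45 MAPK6 was 0.74 lower than under si46 and 0.79 lower than under si47 on the log2 scale.

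VDAC1 (ENSG00000213585, chr5:133971915-134005133, minus strand, GRCh38) was lower under si46. The siNTC libraries held 194, 180, 173 and 201 CPM, and the si46 libraries 117, 122, 113 and 128 CPM. The si45 libraries held 238, 221, 201 and 218 CPM, and the si47 libraries 190, 217, 187 and 209 CPM. All 4 si46 libraries lay below all 12 others, as for 7 genes or 0.0493% of those tested. All 4 si45 libraries lay above every siNTC library, which held for 3.36% of the genes tested, and the lowest of them exceeded the highest siNTC library only narrowly. The si46 mean was 120 ± 6.44 CPM against 187 ± 12.6 in siNTC (SD, n = 4), which is 64.2% of siNTC. The log2 fold change was -0.64 under si46 (SE 0.0855), 0.23 under si45 (SE 0.0841) and 0.10 under si47 (SE 0.0842).

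AK4 (ENSG00000162433, chr1:65147549-65232145, plus strand, GRCh38) was lower under si47, with more spread than the other 2 chosen genes. The siNTC libraries held 44.1, 58.2, 51.8 and 61.6 CPM, and the si47 libraries 25.5, 45.7, 32.8 and 27.8 CPM. The si45 libraries held 56.5, 63.1, 54.3 and 74.1 CPM, and the si46 libraries 46.2, 65.8, 56.1 and 62 CPM. Of the si47 libraries 3 of 4 lay below all 12 others, and si47 replicate 2 lay inside the siNTC range. The si47 mean was 32.9 ± 9.06 CPM against 53.9 ± 7.7 in siNTC (SD, n = 4), which is 61.1% of siNTC. The log2 fold change was -0.72 under si47 (SE 0.155), -0.91 without si47 replicate 2 and -0.61 without si47 replicate 1. It was 0.20 under si45 (SE 0.15) and 0.089 under si46 (SE 0.15), and the si46 value ranged from 0.002 to 0.18 when single libraries were left out.

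**Figure D1:**
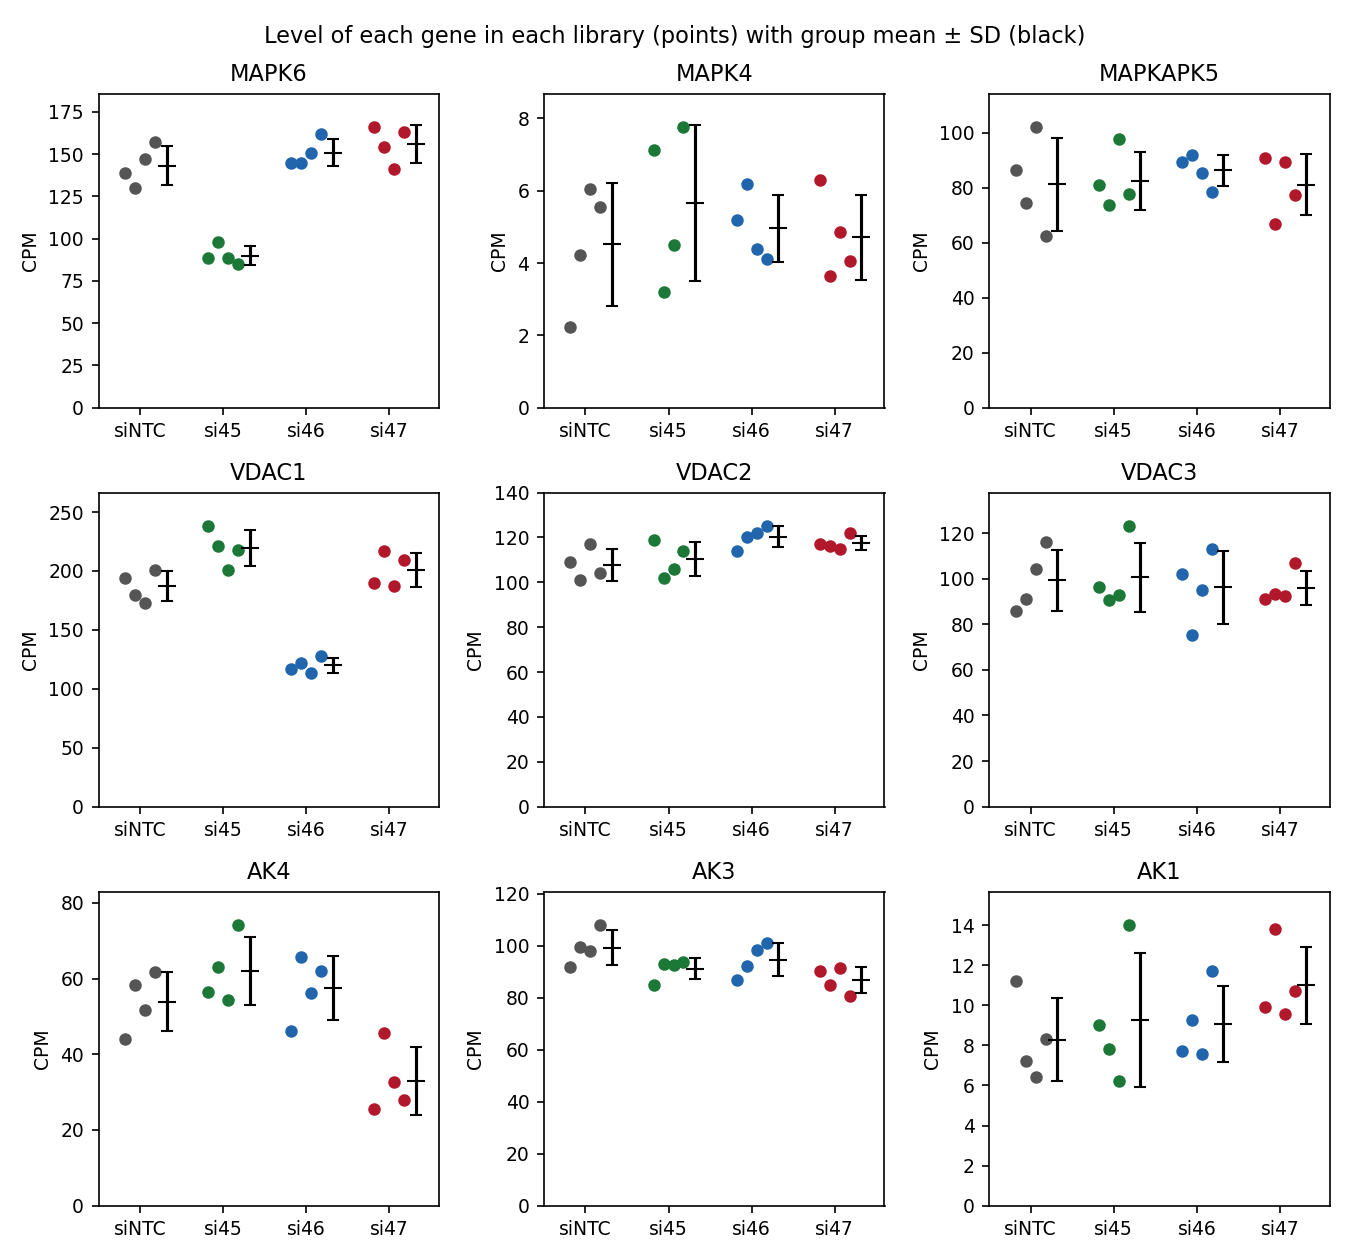
Level in CPM (vertical axis, from 0) of each of the 9 genes in the 4 libraries of each group (points), with the group mean ± SD in black. MAPK6 under si45 (84.9 to 97.9 CPM) and VDAC1 under si46 (113 to 128 CPM) stand apart from all other libraries, AK4 under si47 (25.5 to 45.7 CPM) reaches into the siNTC range, and the relatives overlap between siNTC and each siRNA group, except that the AK3 libraries under si47 all lie below those of siNTC.

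The pattern that chose these genes was rare. A gene lower under 1 siRNA only had an edgeR adjusted p under 0.05 against siNTC and against both other siRNAs. That held for 2 genes under si45 (0.0141% of the genes tested), MAPK6 and HSP90B1, a chaperone of the endoplasmic reticulum. It held for 1 gene under si46 (0.00705%), VDAC1, and for 3 genes under si47 (0.0211%), AK4, ENTREP3 and RPL14P1, a pseudogene row that can share reads with RPL14. In the opposite direction SOX4, a transcription factor, was the 1 gene higher under si47 only (0.00705%), and the count was 0 under si45 and under si46. At an unadjusted edgeR p under 0.05 in all 3 comparisons, 25 genes were lower under si45 only, 22 under si46 only and 229 under si47 only. At the same cut-off 5 genes were higher under si45 only, 19 under si46 only and 155 under si47 only. With adjusted p-values, DESeq2 and limma-voom gave 0 genes higher under si45 only and 0 under si46 only. With the replicate number as a block, the genes lower under 1 siRNA only numbered 5, 3 and 31 for si45, si46 and si47, and those higher under si47 only numbered 30. DESeq2 gave 11 lower under si47 only and 5 higher.

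By the largest of its 3 adjusted p-values, the last gene inside the threshold was HSP90B1 at 0.00363 for si45, VDAC1 at 6.84e-06 for si46 and AK4 at 0.0295 for si47. The first genes outside were NAP1L1 at 0.325, SPCS3 at 0.204 and RPL14 at 0.0542. These values are those of the edgeR fit that the rule used. The alternative analyses reused the libraries that chose these genes, so their results are a description and no separate test. MAPK6 and VDAC1 stayed inside the rule in 23 of 23 alternative analyses. AK4 stayed inside in 18 of 23 and fell outside without si46 replicate 2, 3 or 4 and without si47 replicate 1 or 4. All 4 si47 libraries were lower than the 12 others for 62 genes (0.437%), and AK4 was not among them.

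The siRNA sequences were not analysed here, so pairing of an siRNA with the chosen transcripts was not tested. What the deposited reference allows is a search for identical stretches between TPX2 and each transcript, on the sense strand and without mismatches. The longest stretch shared with the 3497-base TPX2 transcript was 12 bases for MAPK6, 11 for VDAC1 and 13 for AK4. For the relatives it was 14 for MAPK4, 12 for VDAC2, VDAC3 and AK3, and 11 for MAPKAPK5 and AK1. Over 19623 transcripts, 1 for each protein-coding gene, the median was also 12 bases. Of them 92.2% held a stretch of at least 11 and 66.3% of at least 12. For at least 13 and 14 bases the shares were 32.2% and 11.7%. Other transcripts of the same genes were not searched. Stretch length was not adjusted for transcript length, which ran from 1355 bases for VDAC3 to 6998 for AK4 among the members. MAPK6 and VDAC1 each held 2 stretches of their longest length. The one not shown lies in the 5' untranslated region of MAPK6 and in the coding sequence of VDAC1. Among the relatives, MAPK4, AK3 and AK1 also held a longest stretch in the 3' untranslated region. The stretch nearest the 3' end of each chosen transcript is shown with 6 bases on each side, 5′ to 3′, and capitals mark the shared bases.
MAPK6: tctgaaACATCTGAACTAaaacac
TPX2 at the MAPK6 stretch: aactttACATCTGAACTAcgaaag
VDAC1: tgcaccAGAGTATGAAAtagctt
TPX2 at the VDAC1 stretch: tggagaAGAGTATGAAAatgcag
AK4: gataagGAATGCATCTTCCttctaa
TPX2 at the AK4 stretch: tgaaaaGAATGCATCTTCCccagag
In GRCh38 with GENCODE release 29, the MAPK6 stretch lies at chr15:52064988-52064999 on the plus strand, in exon 6 across the end of the coding sequence. The VDAC1 stretch lies at chr5:133972148-133972158 on the minus strand, in the 3' untranslated region of exon 9. The AK4 stretch lies at chr1:65227797-65227809 on the plus strand, in the 3' untranslated region of exon 6. The matching bases of TPX2 are coding and lie at chr20:31777606-31777617, chr20:31775908-31775918 and chr20:31771620-31771632, in exons 9, 8 and 7.

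None of the 6 relatives passed the threshold under any siRNA. With edgeR's quasi-likelihood test and Benjamini-Hochberg adjustment over 14193 genes, 0 of 6 passed under si45, si46 and si47, where 1.34%, 3.40% and 9.74% of all genes did. The mean of the 3 siRNAs against siNTC also called 0 of 6, beside 7.14% of all genes. Between siRNAs the count was 0 of 6 for si45 against si46, si45 against si47 and si46 against si47, beside 0.0282%, 0.169% and 0.0493%. DESeq2 and limma-voom gave 0 in each of these 7 comparisons. At unadjusted p under 0.05 the count was 1, AK3 under si47, and 0 in the 6 other comparisons. These p-values weigh a difference between group means against the spread between libraries within groups.

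Among the partners of MAPK6, MAPKAPK5 (ENSG00000089022, chr12:111841978-111902238) was at 81.3 ± 16.9 CPM in siNTC, 82.6 ± 10.5 under si45, 86.3 ± 5.75 under si46 and 81.1 ± 11.2 under si47 (SD, n = 4). Under si45, where MAPK6 was low, its 4 libraries held 81, 73.8, 97.8 and 77.7 CPM, all within the siNTC range of 62.3 to 102 CPM. The log2 difference there was 0.024, with a 95% interval from -0.23 to 0.27 and an edgeR adjusted p of 0.968. MAPK4 (ENSG00000141639, chr18:50560078-50731824), the paralog, had 14 to 46 counts per library. It was at 4.52 ± 1.7 CPM in siNTC and 5.65 ± 2.15 under si45, and the si45 libraries held 7.14, 3.21, 4.51 and 7.76 CPM. The log2 difference was 0.33, with an interval from -0.35 to 1 (edgeR adjusted p = 0.788). MAPK6 made up 97 ± 1.02% of the counts of the pair in siNTC and 94 ± 2.38% under si45. MAPK6 was chosen for its low si45 level, which enters this share.

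Among the channels, VDAC2 (ENSG00000165637, chr10:75210154-75231448) was at 108 ± 6.84 CPM in siNTC and 120 ± 4.52 under si46 (SD, n = 4), where VDAC1 was low. Its si46 libraries held 114, 120, 122 and 125 CPM and its siNTC libraries 109, 101, 117 and 104 CPM. In 3 of 4 si46 libraries VDAC2 was above the whole siNTC range, but the log2 difference of 0.16, with an interval from -0.02 to 0.33, missed the threshold (edgeR adjusted p = 0.414). VDAC3 (ENSG00000078668, chr8:42391624-42405897) was at 99.2 ± 13.7 CPM in siNTC and 96.2 ± 15.8 under si46. Its log2 difference was -0.042, with an interval from -0.28 to 0.20 (edgeR adjusted p = 0.916). VDAC1 took 47.5 ± 2.5% of the counts of the 3 channels in siNTC, 51 ± 2.47% under si45, 35.7 ± 1.88% under si46 and 48.5 ± 1.6% under si47. The si46 shares, 34.3% to 38.5%, lay below every siNTC share, 44% to 49.9%. VDAC1 was chosen for its low si46 level, which enters this share, so the lower share restates that choice.

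Among the adenylate kinases, AK3 (ENSG00000147853, chr9:4709559-4742043), the other matrix enzyme, had the lowest adjusted p of the 6 relatives in any comparison. Its siNTC libraries held 91.7, 99.5, 98.2 and 108 CPM and its si47 libraries 90.4, 85.1, 91.4 and 80.8 CPM. All 4 si47 libraries were below all siNTC libraries, by a narrow margin, and the same held for 6.98% of the genes tested. The log2 difference was -0.19, with an interval from -0.38 to -0.0062, and it did not hold after correction (unadjusted p = 0.0432, edgeR adjusted p = 0.197). AK1 (ENSG00000106992, chr9:127866480-127877743), the cytosolic enzyme, was at 8.29 ± 2.1 CPM in siNTC and 11 ± 1.93 under si47 (SD, n = 4). Its log2 difference under si47 was 0.40, with an interval from -0.11 to 0.91 (edgeR adjusted p = 0.352). AK4 took 33.3 ± 2.36% of the counts of the 3 kinases in siNTC and 24.9 ± 4.81% under si47. The si47 shares of 20.2% to 31.6% overlapped the siNTC shares of 30% to 35.3%. AK4 was chosen for its low si47 level, which enters this share.

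**Figure D2:**
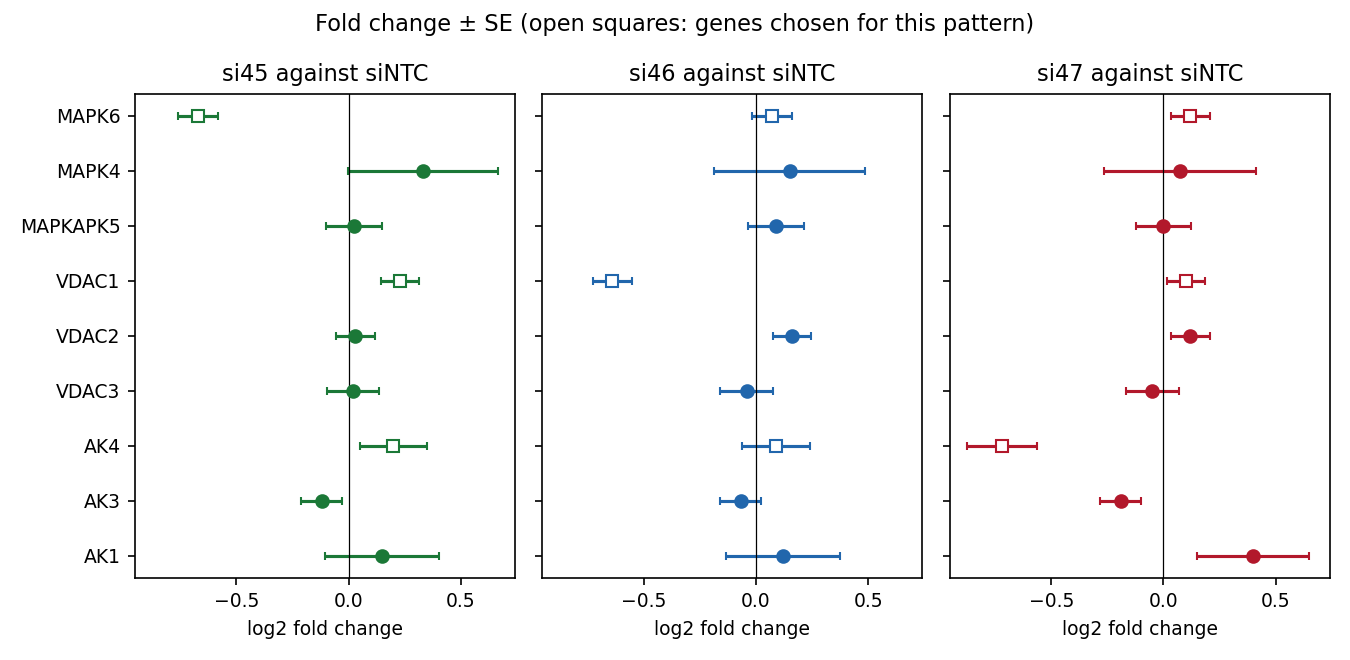
Log2 fold change against siNTC ± SE (horizontal axis) of the 9 genes for each siRNA, from 1 edgeR fit over 16 libraries; open squares are the 3 genes chosen for this pattern. The chosen genes reach -0.67, -0.64 and -0.72 under 1 siRNA each, and no relative is below -0.19.

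**Figure D3:**
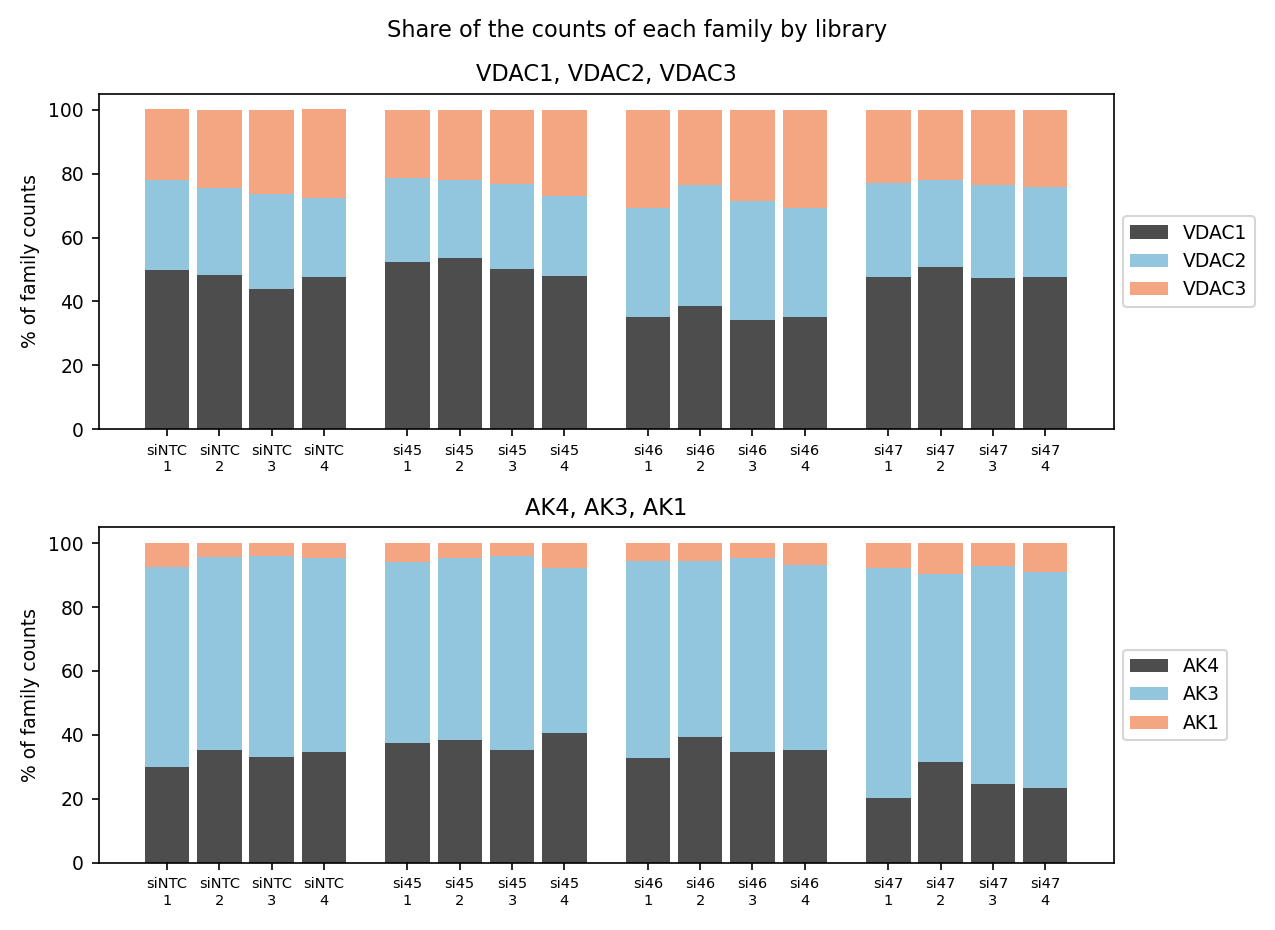
Share of the counts of each family (vertical axis, percent) taken by each member in each of the 16 libraries, for the 3 channels (top) and the 3 adenylate kinases (bottom). VDAC1 takes 34.3% to 38.5% of the channel counts in the si46 libraries and at least 44% in the siNTC libraries, and AK4 takes 20.2% to 31.6% of the kinase counts in the si47 libraries. VDAC1 and AK4 were chosen for these low levels, which enter the shares.

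By level in siNTC the order was VDAC1, MAPK6, VDAC2, AK3, VDAC3, MAPKAPK5, AK4, AK1 and MAPK4. Because the kit counts transcript ends, CPM was compared between genes without division by length. The ranges of the siNTC libraries overlapped between VDAC2 and AK3, AK3 and VDAC3, and VDAC3 and MAPKAPK5, and not between the other neighbours. VDAC1 stood at the 92.7th percentile of the tested genes, MAPK6 at the 90th and AK4 at the 73.8th, against 32.5 for AK1 and 22.3 for MAPK4. Under si45 MAPK6 was the fifth of the 9, with a range that overlapped those of AK3 and MAPKAPK5. Under si46 VDAC1 was the third, below MAPK6 and overlapping VDAC2. The within-group SD on the log2 scale was 0.094 for VDAC1, 0.0962 for MAPK6 and 0.26 for AK4, beside a median of 0.255 over all genes tested, and 0.455 for MAPK4 and 0.343 for AK1.

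Pseudogene rows of the 9 genes, found by symbol and not by sequence, held few counts. How reads that match both a parent and a pseudogene were counted is not given in the sources used here. The 13 pseudogene rows of VDAC1 summed to 1 to 9 counts per library, or 0.424% of the VDAC1 counts, and the 6 of MAPK6 summed to 0 to 7, or 0.262%. The 6 pseudogene rows of AK4 summed to 0 to 2 counts. Of the 9 genes VDAC2 had the highest share, 0.457%, with 0 to 11 counts per library over its 5 rows. With these rows added to their parents, the mean VDAC1 share under si46 was 35.8% in place of 35.7%. Overlapping genes differ by member: LEO1 lies on the opposite strand of MAPK6 with 420 to 760 counts per library and no shared exon bases. MAPKAPK5-AS1 shares 792 exon bases with MAPKAPK5 on the opposite strand and held 84 to 170 counts, and whether the counting used strand is not given in the sources used here. On the same strand, ADAM1A shares 2129 exon bases with MAPKAPK5, AL157935.2 shares 894 with AK1 and AC012433.1 shares 333 with MAPK4. Those 3 genes held 0 to 1 counts per library, and how reads in the shared bases were assigned was not tested. VDAC1, VDAC2, VDAC3 and AK3 overlap no annotated gene.

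Genes of these pathways other than MAPK6, VDAC1 and AK4 were counted in 5 lists. The relatives are counted again here, so the lists are not separate from their tests. MAPK4 and MAPKAPK5 are among the ERK3 and ERK4 pathway genes. VDAC2 and VDAC3 are among the VDAC partners, and AK3 and AK1 among the kinases of nucleoside mono- and diphosphates. Each count is to be read against the share of all genes called, 1.34% under si45, 3.40% under si46 and 9.74% under si47. Of 21 tested ERK3 and ERK4 pathway genes other than MAPK6, 0 passed under si45 (edgeR adjusted p under 0.05; 1 at unadjusted p under 0.05, and 0 by DESeq2, by limma-voom and with the replicate block), with a median log2 difference of 0.023 beside 0.00097 over all genes. Under si46 the count was also 0 (2 at unadjusted p under 0.05, 0 by DESeq2 and limma-voom, and 2 with the replicate block). Under si47, 2 of the 21 passed, 1 in each direction, where 4.91% of all genes were higher and 4.83% lower. CCND3, a G1 cyclin, fell from 24 ± 4.98 to 14.8 ± 3.15 CPM, a log2 difference of -0.70 (SE 0.185, edgeR adjusted p = 0.0112). PAK3, a p21-activated kinase, rose from 32.2 ± 1.23 to 43.8 ± 7.19 CPM, by 0.44 (SE 0.145, edgeR adjusted p = 0.0469). The CCND3 call was lost without siNTC replicate 1 or si47 replicate 1, and the PAK3 call in 9 of 16 libraries left out. Those were siNTC replicates 1 to 4, si45 replicate 4, si46 replicate 1 and si47 replicates 1, 2 and 4, and the adjusted p over the 16 ranged from 0.0171 to 0.195. Of 11 tested other MAP kinases, MAPK12, the p38 gamma kinase, fell under si47 from 55 ± 6.24 to 35.7 ± 7.25 CPM (log2 difference -0.62, SE 0.145, edgeR adjusted p = 0.00441), and 0 passed under si45 or si46 (1 each at unadjusted p under 0.05, 0 each by DESeq2 and limma-voom, and 1 each with the replicate block).

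Of 31 tested VDAC partners and other outer membrane genes, 0 passed under si46, where VDAC1 was low (6 at unadjusted p under 0.05, 1 by DESeq2, 0 by limma-voom and 2 with the replicate block), beside 3.40% of all genes, with a median of 0.10 beside 0.0024 over all genes. Under si45 the count was 0 as well, beside 1.34% of all genes (2 at unadjusted p under 0.05, and 0 by DESeq2, by limma-voom and with the block). Under si47, 2 of the 31 rose, beside 4.91% of all genes. BAX, a pore-forming protein of apoptosis, went from 24.3 ± 8.41 to 48.7 ± 2.54 CPM (log2 difference 1, SE 0.169, edgeR adjusted p = 0.000157), with all 4 si47 libraries above all siNTC libraries, as for 7.41% of the genes tested. SLC25A4, an ADP/ATP carrier of the inner membrane, went from 15 ± 2.33 to 25.1 ± 3.05 CPM (0.73, SE 0.168, edgeR adjusted p = 0.00376). Both calls held when any of the 16 libraries was left out.

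Of 17 tested kinases of nucleoside mono- and diphosphates other than AK4, AK9 was the 1 that passed under si47, beside 9.74% of all genes, rising from 4.51 ± 0.899 to 8.57 ± 0.875 CPM (log2 difference 0.92, SE 0.272, edgeR adjusted p = 0.0244). Without siNTC replicate 2 or 4 or si47 replicate 1 that call was lost, and the adjusted p over the 16 libraries left out ranged from 0.0201 to 0.0874. Under si45 and si46, 0 of the 17 passed, beside 1.34% and 3.40% of all genes (1 each at unadjusted p under 0.05, and 0 each by DESeq2 and limma-voom). With the replicate block the count was 0 under si45 and 1 under si46. The list's median under si47 was -0.012 beside 0.0043 over all genes. AK4 is known as a gene that rises in low oxygen, so 21 other tested hypoxia-inducible genes were counted. Under si45, 0 of the 21 passed, beside 1.34% of all genes (1 at unadjusted p under 0.05, 0 by DESeq2 and limma-voom, and 1 with the replicate block). DDIT4, an inhibitor of mTORC1 signalling, was the 1 that passed under si46, where 2.14% of all genes were higher, and under si47, where 4.91% were. It was at 19 ± 5.11 CPM in siNTC, 36.9 ± 4.97 under si46 and 54.2 ± 15.3 under si47. Its log2 difference was 0.95 under si46 (SE 0.237, edgeR adjusted p = 0.0303) and 1.51 under si47 (SE 0.234, edgeR adjusted p = 0.000306). The si46 call was lost without siNTC replicate 1, 3 or 4 or si46 replicate 1, 2 or 4, with an adjusted p of up to 0.102. The list's median under si47 was 0.054.

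**Figure D4:**
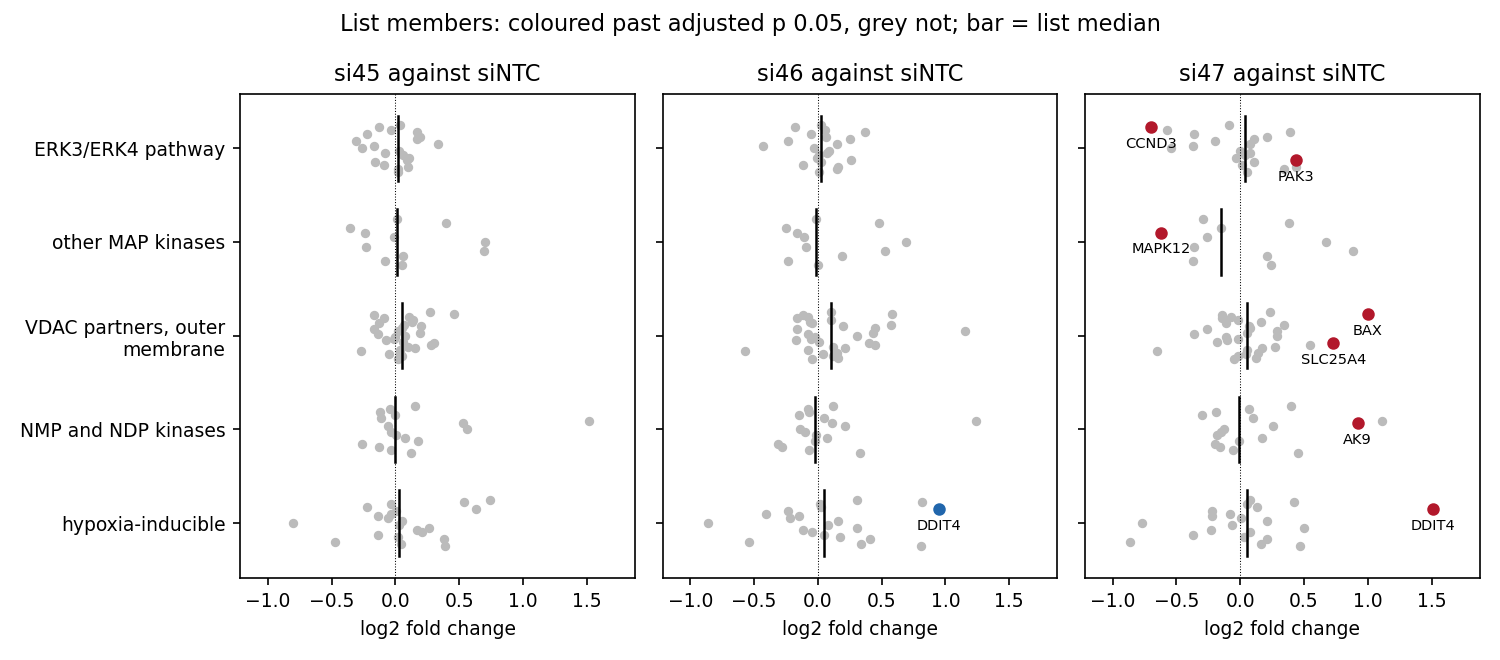
Log2 fold change against siNTC (horizontal axis) of the tested members of 5 gene lists without the 3 chosen genes, by siRNA; coloured points passed an adjusted p of 0.05, grey points did not, and the black bar is the list median. No member passed under si45, DDIT4 passed under si46, and CCND3, PAK3, MAPK12, BAX, SLC25A4, AK9 and DDIT4 passed under si47.

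For the mean of the 3 siRNAs against siNTC, 4 list members passed, all higher, beside 3.61% of all genes. They were 1 of 11 other MAP kinases, 2 of 31 VDAC partners and 1 of 21 hypoxia-inducible genes. Of 21 ERK3 and ERK4 pathway genes and of 17 kinases of nucleoside mono- and diphosphates, 0 passed. The counts for these 2 lists were 5 and 3 at an unadjusted edgeR p under 0.05. Both were 0 by DESeq2 and limma-voom, and with the replicate block they were 2 and 1. The share of all genes called in either direction was 7.14%. BAX rose by 0.68 (edgeR adjusted p = 0.00257), DDIT4 by 1.03 (edgeR adjusted p = 0.0033) and SLC25A4 by 0.48 (edgeR adjusted p = 0.0315) on the log2 scale. MAPK10, the JNK3 kinase of neurons, rose by 0.42 (SE 0.131, edgeR adjusted p = 0.0457). Its siNTC mean was 34.3 ± 8.25 CPM, and the siRNA means were 45.4 ± 5.58 under si45, 48 ± 9.22 under si46 and 44.7 ± 7.71 under si47. The MAPK10 call was lost for 11 of 16 libraries left out (siNTC replicates 2, 3 and 4, si45 replicates 1, 2 and 4, si46 replicates 1, 2 and 4, si47 replicates 1 and 4), with an adjusted p of 0.0142 to 0.229. The SLC25A4 call was lost without siNTC replicate 2 or 3, si46 replicate 2 or si47 replicate 2, with an adjusted p of up to 0.15.

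Genes whose log2 CPM followed the chosen genes most closely were found among 11806 genes over the 16 libraries, which share 4 groups, so Pearson's r is a description and has no p. For MAPK6 the closest were HSP90B1 (r = 0.882), NAP1L1 (0.847), VMA21 (0.842), NAA50 (0.81) and CACNB3 (0.796). HSP90B1 averaged 555 CPM in siNTC and 361, 548 and 580 CPM under si45, si46 and si47. For VDAC1 they were PLPBP, the closest, followed by CREBL2 (0.8), SPIN2B (0.797), PDAP1 (0.791) and ABRACL (0.762). CREBL2 averaged 36.6 CPM in siNTC and 25.4 CPM under si46. For AK4 they were TBC1D1 (0.87), NETO2 (0.847), ENTREP3 (0.827), SLC20A1 (0.817) and ENSG00000259562 (0.804). With group means removed, r was 0.252 for HSP90B1, 0.465 for PLPBP and 0.768 for TBC1D1, and -0.301 for CREBL2.

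**Figure D5:**
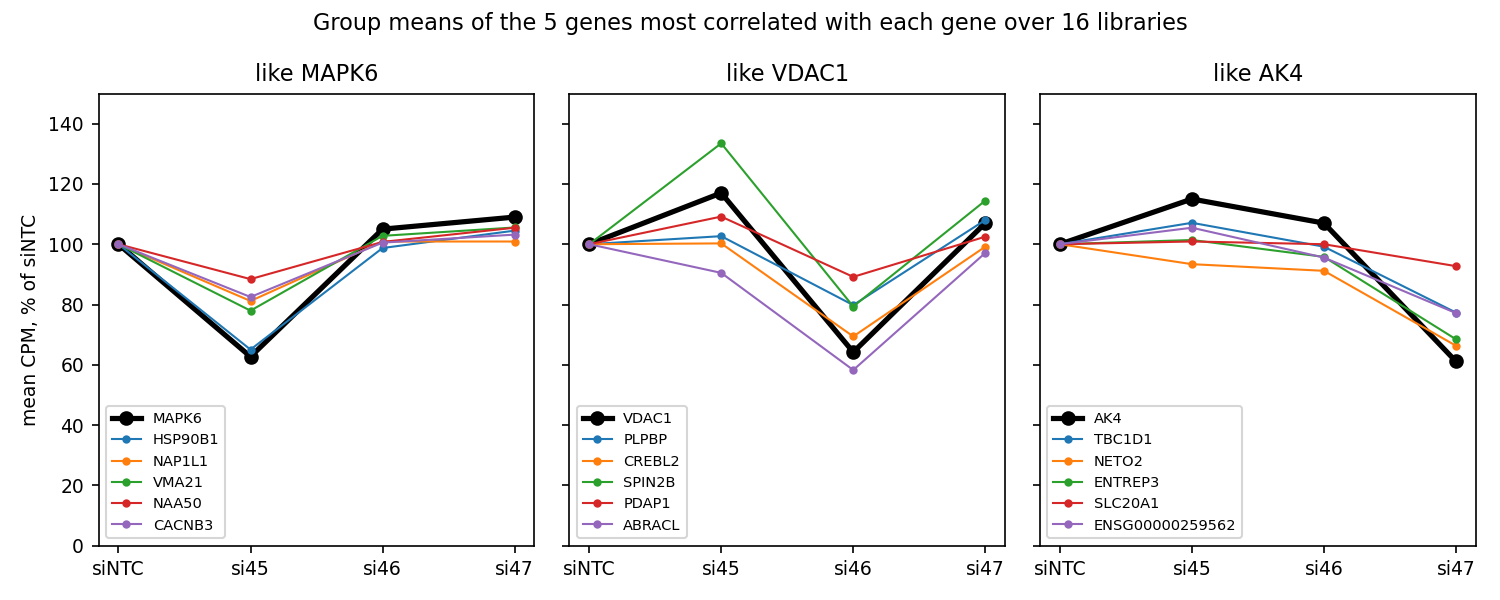
Mean level by group as a percentage of siNTC (vertical axis) for MAPK6, VDAC1 and AK4 and for the 5 genes whose log2 CPM over the 16 libraries correlated best with each. Of the 5 genes in the MAPK6 panel, HSP90B1 has the lowest si45 mean relative to its siNTC mean, at 361 CPM against 555 CPM.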

How the data were processed

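The deposited table holds raw counts per Ensembl gene for 16 libraries, made by the authors from single-end 3' QuantSeq reads. FastQC 0.11.7, STAR 2.7.2b, edgeR 3.36.0, limma 3.50.3 and GRCh38 are named per the submitters' processing notes. Strand, multi-mapping and annotation settings are not given in the sources used here. No row lacked a gene and 0 columns were left unused. A gene name table matched 58434 of 58787 identifiers; positions are from GENCODE release 29.

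From the counts, edgeR 4.0.16 in R 4.3.3 was run with filterByExpr (minimum count 10, minimum total 15), TMM factors and 1 quasi-likelihood fit (robust) over all groups, with Benjamini-Hochberg adjustment over 14193 genes at 0.05. In every library the tested genes took up 99.6% or more of all counts. CPM uses TMM factors, except for marker sums, which use total counts. Likeness used genes with a mean count of at least 20. Groups and replicate numbers came from the sample titles. No 2 libraries of a group agreed within sampling noise (24 pairs, chi-square per degree of freedom 4.45 to 10.3).

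The members and gene lists were chosen with earlier results of these data known. Genes named are the 9 members, TPX2, the 5 most alike to each chosen gene, genes meeting or nearest to the 1-siRNA rule, and, of each list, up to 5 members past the threshold per comparison. Outside this rule, the markers TH and LYZ and the overlapping genes LEO1, MAPKAPK5-AS1, ADAM1A, AL157935.2 and AC012433.1 were named after their values were seen. Deviations of same-numbered libraries from their group means correlated at 0.12 to 0.242 for si45 and si47 in all 4 pairs, and at 0.0188 to 0.247 for the other pairs of groups, where some were under 0.1. Libraries with different numbers were not compared, so whether the numbers mark a shared batch was not tested. With the replicate number as a block, the genes called against siNTC numbered 577, 1073 and 2198 for si45, si46 and si47. Without it they numbered 190, 482 and 1382. Alternatives were other scaling factors, filters, DESeq2 1.42.0, limma-voom (limma 3.58.1), fewer groups, a replicate block and leaving out each library. On simulated counts with a log2 change of -1 under si45, 61.5% of 187 changed genes among 13618 were called, and 95.3% of the 64 with a mean count of at least 200.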

Additional observations from a re-analysis of the deposited data

Results flagged for a closer look

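In 3 sets of 4 libraries 1 value lay far from the other 3. VDAC3 was at 107 CPM in si47 replicate 4 and at 91 to 93.3 CPM in the 3 other si47 libraries (gap 0.856 of the range). AK3 was at 85.1 CPM in si45 replicate 1 and at 92.8 to 94 CPM in the 3 others (0.865). The VDAC1 share of the channel counts was 50.9% in si47 replicate 2 and 47.5% to 47.8% in the 3 others (0.912). With 44 sets checked against Dixon's critical value for 4 libraries, chance gives about 2.2 such values.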

How the results depend on the processing

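The 42 values of the 6 relatives stayed uncalled under every alternative run, 1008 values in all, and 50 of those uncalled values changed sign. Leaving out single libraries moved MAPK6 under si45 between -0.71 and -0.63 and VDAC1 under si46 between -0.68 and -0.61. Counts of called genes without the chosen genes were small and moved with the setting; the cause was not tested. For the VDAC partners under si46 the count was 1 with upper-quartile factors, with DESeq2 and with only the groups compared. The latter also gave 1 nucleotide kinase under si46. With limma-voom it was 1 for the ERK3 and ERK4 pathway under si47 and 0 for other MAP kinases over the mean siRNA. DESeq2 gave 11 genes lower and 5 higher under si47 only. With no low-count filter the counts were 1 hypoxia gene under si45. Under si46 they were 1 ERK3 and ERK4 pathway gene, 1 MAP kinase and 2 VDAC partners. Under si47 they were 0 nucleotide kinases, and over the mean siRNA 1 pathway gene and 2 MAP kinases. Genes under 1 siRNA only then numbered 2 higher for si46, and 12 lower and 15 higher for si47.

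With the replicate number as a block, counts were 1 MAP kinase and 1 hypoxia gene under si45. Under si46 they were 2 pathway genes, 1 MAP kinase, 2 VDAC partners, 1 nucleotide kinase and 2 hypoxia genes. Under si47 they were 3 pathway genes (2 without the block), 3 MAP kinases, 5 VDAC partners, 2 nucleotide kinases and 2 hypoxia genes, and over the mean siRNA 2 pathway genes, 2 MAP kinases and 1 nucleotide kinase. Genes lower under 1 siRNA only numbered 5, 3 and 31, and higher 2 (si46) and 30 (si47). The 6 relatives stayed at 0 with the block.

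Leaving out single libraries gave 0 to 1 for VDAC partners under si45, for pathway genes, MAP kinases, VDAC partners and hypoxia genes under si46, for nucleotide kinases under si47 and for nucleotide kinases over the mean siRNA. It gave 0 to 2 for pathway genes under si47 and MAP kinases over the mean siRNA, 1 to 2 for MAP kinases under si47 and VDAC partners over the mean siRNA, and 2 to 4 for VDAC partners under si47. Genes lower under si47 only ranged from 0 without si46 replicate 3 to 11 without si47 replicate 3, and higher from 0 to 6. MAPK4 and AK1 had 14 to 46 and 34 to 76 counts per library and within-group SDs of 0.455 and 0.343 on the log2 scale; the part of depth in that spread was not tested.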
